A study of Mus musculus with 6 samples.

Results

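The genes described here are 10 smooth muscle contractile genes that mark myofibroblasts: Acta2, Actg2, Myl9, Mylk, Tpm1, Tpm2, Cnn1, Cnn2, Tagln and Cald1. They were listed by function and taken by gene symbol, and each matched 1 of the 14831 rows of the count table. No measured value entered the rule, but it was set up with earlier results of these data known. All 10 passed the filter on low counts, as did 14289 genes in all. RNAseq was performed on immortalized mouse pancreatic fibroblasts of mixed strain grown to confluence in serum, each library from its own well, with 3 libraries labelled WT and 3 labelled Gli2-/-;Gli3-/- (below, labelled KO). According to the study's methods, the lines grew out of the adult pancreas of mice carrying floxed Gli alleles. After immortalization, control cells received a GFP adenovirus and a dsRed lentivirus, and knockout cells received a GFP and a Cre adenovirus, all adenoviral genes being driven by the CMV promoter. The labels used here give genotype and not the line or clone of each well. The wells are therefore not taken as independently derived lines, and p-values cover only the spread among wells. Virus, cell sorting and genotype cannot be told apart in this design.

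The targeted genes went against the labels. Gli2 had 809, 944 and 868 counts in WT-labelled libraries and 1932, 2316 and 1926 in KO-labelled libraries. Gli3 had 392, 416 and 398 counts in WT-labelled libraries and 1434, 1637 and 1404 in KO-labelled libraries. Both genes were thus higher in KO-labelled libraries (log2 fold change 1.05 and 1.71), although counts over whole genes need not show the loss of single exons. According to its methods, the study screened infected cells for recombination by qPCR and western blot, which these files do not hold. It reports that the Gli deletion in its fibroblast lines was borne out by both assays. Each direction given here is therefore that of the labels, which were kept as deposited. Totals ranged from 31728420 to 41035931 counts per library. Fibroblast genes were abundant, with 8 of 10 listed markers in the table and a summed level of 36783 to 47236 CPM (counts scaled by library size, as edgeR computes them). Of the fibroblast markers, Pdpn and Fap have no row in the table used here, and Thy1 was near 0.

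Contraction in smooth muscle and in myofibroblasts depends on actin filaments, on myosin II and on the proteins that regulate their contact. When calcium in the cell rises, myosin light chain kinase phosphorylates the regulatory light chain and myosin is activated, while myosin phosphatase reverses this step. Tropomyosin lies along the actin filament, and caldesmon, calponin and transgelin bind to it. Fibroblasts that turn on this set in wounds, fibrosis and tumor stroma are termed myofibroblasts, with alpha smooth muscle actin as the usual marker. Many of these genes carry CArG boxes, the sequences bound by serum response factor (SRF), which acts with the myocardin-related cofactors MRTF-A and MRTF-B.

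The promoters were read first, since SRF is the factor best known to control the set. RefSeq promoter sequence of build GRCm38.p6 was held for 8 of the 10 genes, and Tagln and Actg2 were not matched. CArG boxes were searched in their strict form, CC then only A or T then GG. Within the 250 bases before the transcription start, this form was in 2 of the 8 genes, Myl9 and Cnn2, against 1.47% of 32851 promoters. The stretches around both boxes are shown. Each stretch is 60 bases long on the plus strand, read 5′ to 3′, with the CArG box in capitals.
Myl9, chr2:156775278-156775337: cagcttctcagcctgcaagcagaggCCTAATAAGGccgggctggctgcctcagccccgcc
Cnn2, chr10:79988519-79988578: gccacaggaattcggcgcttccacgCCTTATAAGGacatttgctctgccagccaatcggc
The box of Myl9 began 161 bases before the start and that of Cnn2 began 56 bases before it. The GLI consensus GACCACCCA, searched on both strands, was in none of the 8 promoters and in 0.225% of all promoters. The TEAD-binding MCAT element CATTCC, also searched on both strands, was in 4 of the 8 (Acta2, Cald1, Mylk and Tpm1) and in 12.6% of all promoters. The 8 genes were counted by gene and have 9 promoter windows, while the shares over all promoters count windows. Of the windows of Cald1, only that at the first start held the MCAT element. A match is a description of letters, not a bound site, and boxes farther from the start or in an intron were not searched. Boxes with a G or C among the middle letters were not counted, such as ccctatatgg and ccttgtttgg in Acta2 and ccttgtaagg in Myl9. The RefSeq window of Mylk lies inside the gene, at a start downstream of the first one in GENCODE.

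The contractile genes did not move as a group between WT-labelled and KO-labelled libraries. Actg2 and Cnn1 rose in KO-labelled libraries, Myl9 and Mylk fell, and the remaining 6 differed by less than 1.5-fold. Acta2, the gene by which myofibroblasts are most often recognized, had libraries that overlapped between the groups. A gene was called at an adjusted p under 0.05 and at least 1.5-fold in edgeR's quasi-likelihood test. By this rule 2 of 10 members were called higher, where 11.6% of all tested genes were, and 2 were called lower, where 6.10% were. By adjusted p alone, 7 of the 10 passed, against 58.7% of tested genes. Of these, 4 were higher (29.9% of tested genes) and 3 were lower (28.8%). The libraries of the groups did not overlap for 8 members, against 64.2% of tested genes. Most tested genes thus passed by adjusted p, and 10 genes give only a coarse share to set beside that background. The median log2 fold change of the members was 0.05, beside 0.00 over all genes, and the median of its size was 0.38, beside 0.22.

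**Figure D1:**
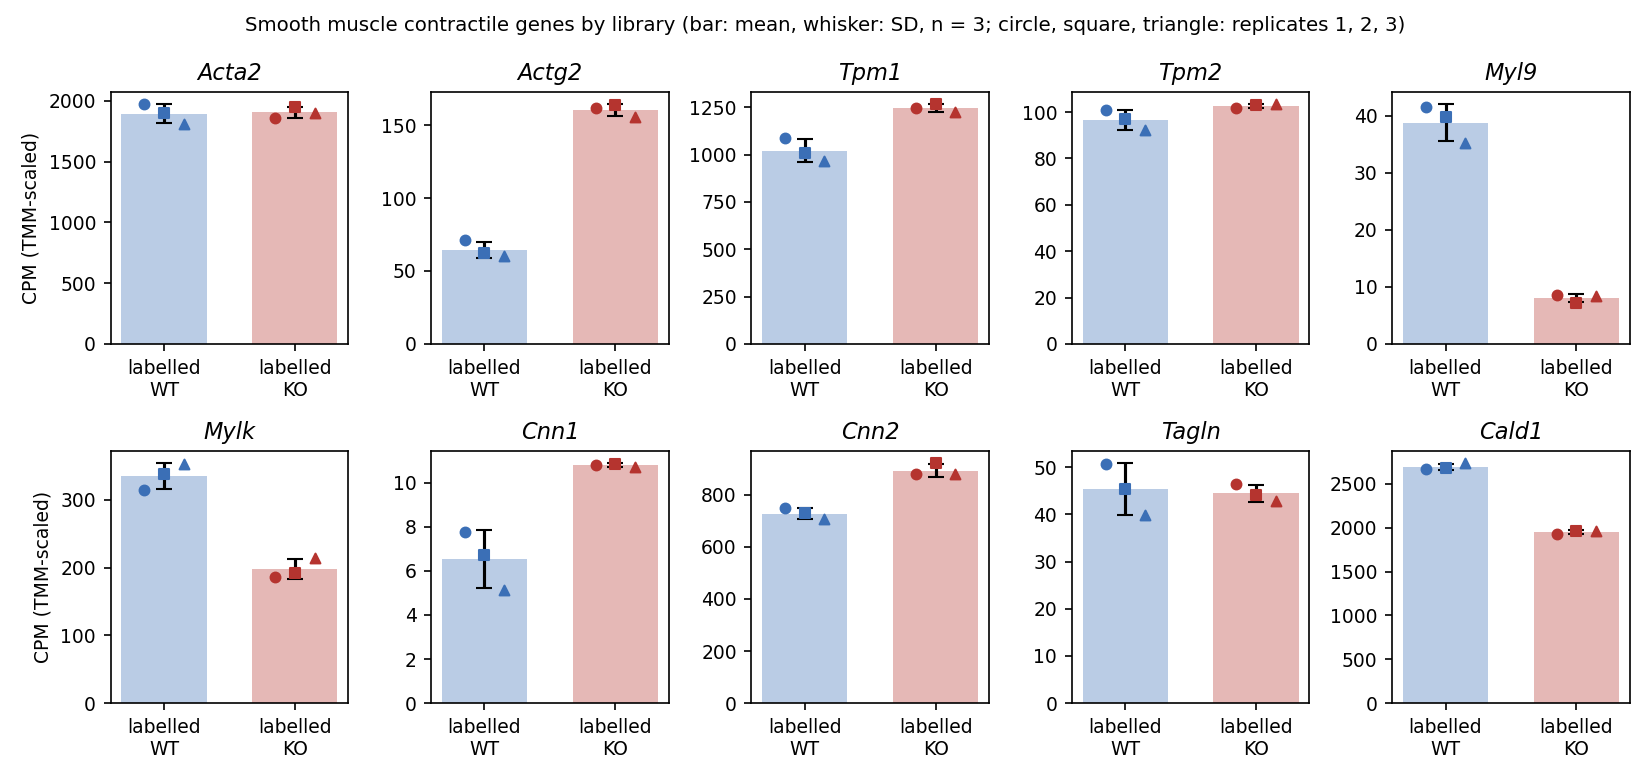
CPM of each contractile gene (vertical axes, each from 0) in the 3 libraries labelled WT (blue) and the 3 labelled KO (red); bars are means, whiskers are SD and each point is a library. Actg2 and Cnn1 stand higher and Myl9 and Mylk lower in KO-labelled libraries, while the points of Acta2 and Tagln overlap.

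Of the smooth muscle actins, only the gamma form was called. Acta2 (chromosome 19 from 34241090 to 34255590, minus strand; GENCODE M21 on GRCm38 is used for all gene positions) encodes alpha smooth muscle actin. It was at 1970.1, 1898 and 1810.3 CPM in WT-labelled libraries and at 1861, 1946 and 1902 CPM in KO-labelled libraries. The groups overlapped, with 1893 ± 80.0 against 1903 ± 42.2 CPM (SD, n = 3 each). For Acta2 the log2 fold change was 0.01 (SE, its standard error, 0.03; adjusted p = 0.859 by edgeR). Its sign depended on single libraries, being -0.03 without WT replicate 3 and -0.01 without KO replicate 2.

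Actg2 (chromosome 6 from 83512905 to 83536265, minus strand) encodes gamma smooth muscle actin, the actin of visceral smooth muscle. Its counts were 2226, 2077 and 1920 in WT-labelled libraries and 5727, 6821 and 5145 in KO-labelled libraries. These correspond to 71.0, 62.0 and 60.1 CPM against 162, 164 and 156 CPM. Every library labelled KO was above every library labelled WT. The rise was 2.49-fold (log2 fold change 1.32, SE 0.05, adjusted p = 3.61e-10). A change as high or lower was seen for 94.7% of tested genes.

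Counts of Acta2 exceeded those of Actg2 by 27.7, 30.6 and 30.1 times in WT-labelled libraries and by 11.5, 11.9 and 12.2 times in KO-labelled libraries. The balance between the smooth muscle actins thus differed by -1.31 on the log2 scale, without overlap of the libraries. The two-sided exact permutation test gave p = 0.1, which is the smallest that 3 libraries against 3 can give. No 50-base stretch of Actg2 was shared with another gene. For Acta2, 0.326% of such stretches were shared, with 6 other genes that included the pseudogene Actg-ps1.

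Myl9, a gene of a regulatory myosin light chain, and the kinase gene Mylk both fell in KO-labelled libraries. Myl9 (chromosome 2 from 156775420 to 156781658, plus strand) encodes a regulatory light chain of smooth muscle and nonmuscle myosin II. The related genes Myl12a and Myl12b are described below. It had 1298, 1331 and 1122 counts in WT-labelled libraries and 301, 299 and 275 in KO-labelled libraries. This is 41.4, 39.7 and 35.1 CPM against 8.50, 7.18 and 8.33 CPM, with a wide gap between the groups. Myl9 fell by 2.28 on the log2 scale (SE 0.08, adjusted p = 9.31e-11), or 4.87-fold. It was the largest change among the 10 genes, and 0.847% of tested genes had a log2 fold change as low or lower.

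Mylk (chromosome 16 from 34745210 to 35002420, plus strand) encodes myosin light chain kinase, which phosphorylates the product of Myl9. Its levels were 315, 338 and 352 CPM in WT-labelled libraries and 187, 191 and 214 CPM in KO-labelled libraries. The groups did not overlap, and Mylk fell by 0.76 on the log2 scale (SE 0.05, adjusted p = 6.37e-08), or 1.70-fold. The gene is known for a long and a short kinase and for telokin, and it has 8 annotated transcripts, which counts over the whole gene do not separate. Antisense genes on the opposite strand overlap 4.87% and 1.99% of its exon bases. They had at most 46 and 20 counts in any library.

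**Figure D2:**
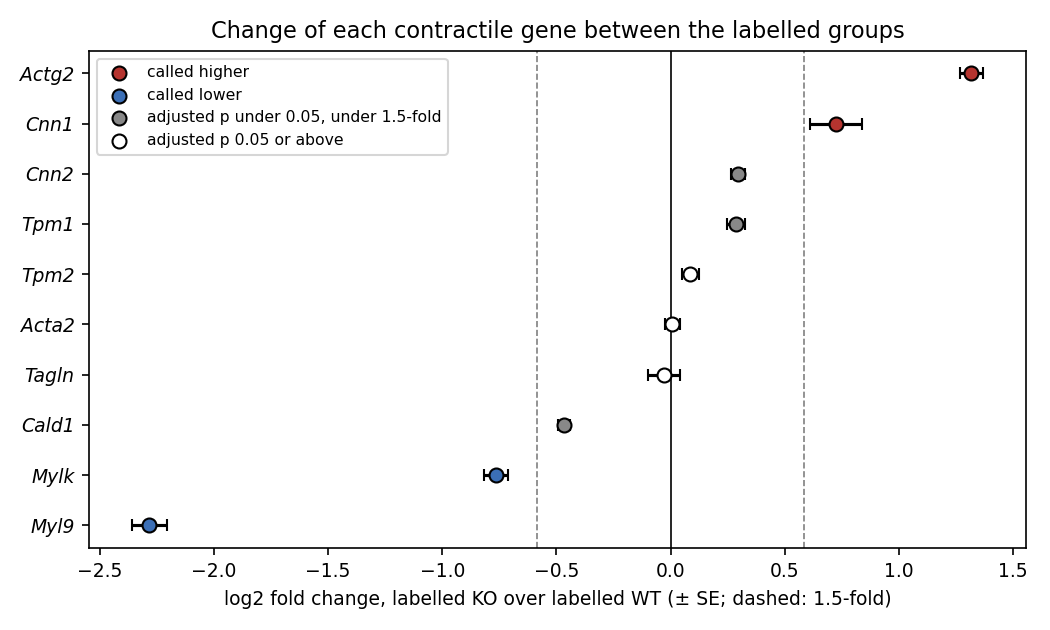
Log2 fold change of each contractile gene, labelled KO over labelled WT (horizontal axis), with its standard error; dashed lines mark 1.5-fold, filled colored points are called genes, grey points passed the adjusted p alone and white points did not. Myl9 lies at -2.28 and Actg2 at 1.32, with the other genes between.

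The tropomyosins were close to level. Tpm1 (chromosome 9 from 67022590 to 67049406, minus strand) encodes the alpha tropomyosins. It was at 1086, 1009 and 966 CPM in WT-labelled libraries and at 1244, 1268 and 1223 CPM in KO-labelled libraries, again without overlap. The difference was 1.22-fold (log2 fold change 0.29, SE 0.04, adjusted p = 3.58e-05), under the limit for a call. Tpm2 (chromosome 4 from 43514711 to 43523765, minus strand), which encodes beta tropomyosin, was at 101, 96.8 and 92.3 CPM against 102, 103 and 103 CPM. Its libraries did not overlap either, but the log2 fold change of 0.09 (SE 0.04) lay just outside the threshold (adjusted p = 0.0520 by edgeR). Tpm2 passed by adjusted p under upper-quartile scaling (0.00402), total-count scaling (0.0104), the filter of 10 counts in every library (0.0369), voom (0.0471) and without WT replicate 1 (0.0136), so that 8 of the 10 genes then passed. Its log2 fold change ranged from 0.05 to 0.12 when single libraries were left out, all under the fold limit.

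Tpm1 counts exceeded Tpm2 counts by 10.8, 10.4 and 10.5 times in WT-labelled libraries and by 12.2, 12.3 and 11.8 times in KO-labelled libraries. The log2 ratio was 0.20 higher in KO-labelled libraries (two-sided exact permutation p = 0.1, the smallest possible). Tpm1 has 21 annotated transcripts, so that muscle and cytoskeletal forms were counted together.

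Both calponins were higher in KO-labelled libraries, and the rarer one passed the fold limit. Cnn1 (chromosome 9 from 22099216 to 22109630, plus strand) encodes basic calponin, a late marker of smooth muscle differentiation. It had 243, 225 and 164 counts in WT-labelled libraries and 383, 453 and 353 in KO-labelled libraries. These are 7.75, 6.72 and 5.14 CPM against 10.8, 10.9 and 10.7 CPM. The libraries labelled WT were spread widely and KO-labelled libraries were nearly equal, with coefficients of variation of 20.2% and 0.840%. At 353 to 453 counts, the KO-labelled spread is narrower than counting noise gives on average, so it is not read as tight expression. Cnn1 rose 1.65-fold (log2 fold change 0.72, SE 0.11, adjusted p = 1.12e-04). Without WT replicate 3, the lowest library, the log2 fold change of Cnn1 was 0.58 (adjusted p = 9.11e-05), which lies just under the fold limit.

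Cnn2 (chromosome 10 from 79988584 to 79996062, plus strand) encodes calponin 2, found in many cells besides muscle. It was at 748, 729 and 705 CPM in WT-labelled libraries and at 878, 921 and 878 CPM in KO-labelled libraries. The groups stood apart by 1.23-fold (log2 fold change 0.29, SE 0.03, adjusted p = 5.27e-06), under the limit for a call. Myl9 and Cnn2, the genes with a strict CArG box close to the start, differed between the groups in opposite directions, and only Myl9 was called. Any part of the box in this was not tested. The ratio of Cnn1 to Cnn2 counts was 0.0104, 0.00921 and 0.00729 in WT-labelled libraries and 0.0123, 0.0118 and 0.0122 in KO-labelled libraries. Its log2 value differed by 0.45 (two-sided exact permutation p = 0.1, the smallest possible).

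**Figure D3:**
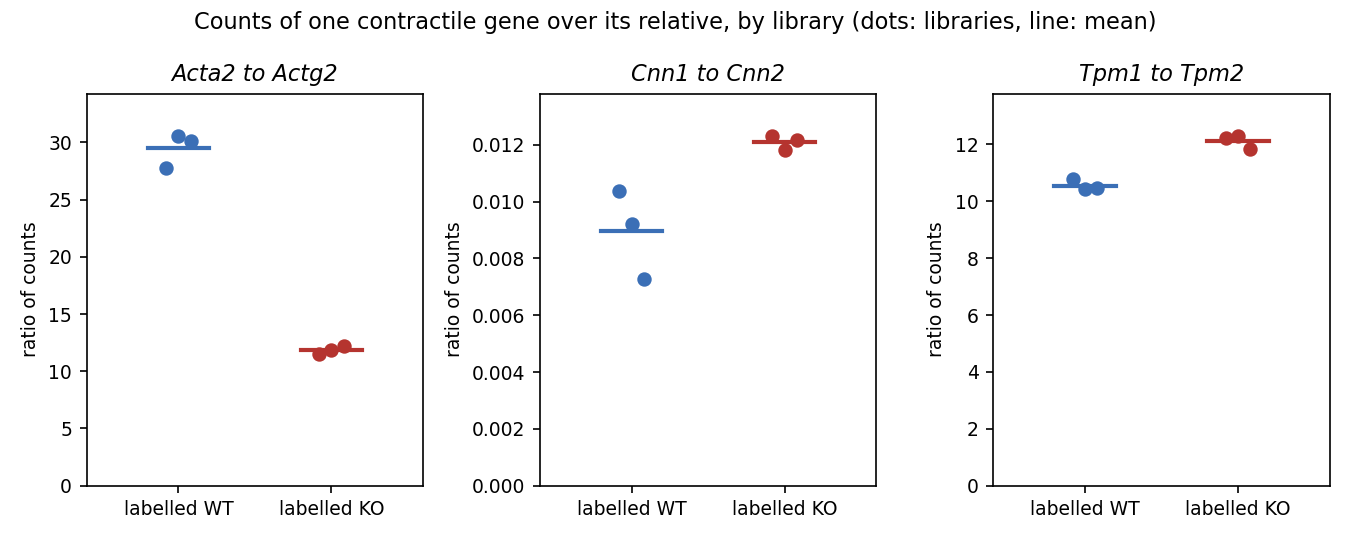
Ratio of counts of a contractile gene to those of its relative (vertical axes, each from 0) in every library labelled WT (blue) or KO (red), with the mean as a line. The ratio of Acta2 to Actg2 is 27.7 to 30.6 in WT-labelled libraries and 11.5 to 12.2 in KO-labelled libraries, while the other ratios differ far less.

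Tagln (chromosome 9 from 45929619 to 45936058, minus strand) encodes transgelin, or SM22 alpha, an early marker of smooth muscle. It was at 50.8, 45.5 and 39.8 CPM in WT-labelled libraries and at 46.5, 44.0 and 42.9 CPM in KO-labelled libraries. KO-labelled libraries lay within the range of the WT-labelled ones. The log2 fold change was -0.03 (SE 0.07, adjusted p = 0.749), which moved with the scaling as all genes did. Under upper-quartile and total-count scaling it was 0.03 and 0.01, where the median over all genes was 0.06 and 0.04. Without WT replicate 1 it was 0.06. The antisense gene Gm48529 on the opposite strand overlaps 62.4% of the exon bases of Tagln, and Pcsk7 overlaps 5.43%. Whether counting used strand is not given in the sources used here. Gm48529 had 43 to 88 counts per library, beside 1271 to 1834 for Tagln.

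Cald1 (chromosome 6 from 34598500 to 34775473, plus strand) encodes caldesmon, which binds actin and inhibits the myosin ATPase. It was at 2664, 2686 and 2735 CPM in WT-labelled libraries and at 1927, 1965 and 1963 CPM in KO-labelled libraries. This was among the tightest of the 10 genes, with coefficients of variation of 1.35% and 1.10%, and the groups were far apart relative to that spread. Cald1 was 1.38-fold lower in KO-labelled libraries (log2 fold change -0.47, SE 0.03, adjusted p = 1.00e-08), under the limit for a call. The gene has 18 annotated transcripts, and the heavy smooth muscle form and the light nonmuscle form were not separated.

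Together the 10 genes took 0.697%, 0.683% and 0.672% of all counts in WT-labelled libraries and 0.651%, 0.672% and 0.655% in KO-labelled libraries. Acta2, Cald1, Tpm1 and Cnn2 made up 91.4% to 92.1% of these counts, and none of the 4 was called. Per kilobase of merged exons, which permits comparison between genes, Acta2 led in both groups. Its level was 862 ± 36.5 CPM per kb in WT-labelled libraries and 867 ± 19.2 in KO-labelled libraries. Cnn2, Cald1 and Tpm1 followed in WT-labelled libraries with 296 ± 8.72, 224 ± 3.02 and 157 ± 9.36 CPM per kb. In KO-labelled libraries the order of Cald1 and Tpm1 was turned, with 162 ± 1.79 and 192 ± 3.42 CPM per kb after Cnn2 with 363 ± 10.0.

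At lower levels, WT-labelled libraries placed Actg2 first with 41.4 ± 3.74 CPM per kb. Myl9 (33.4 ± 2.79) and Tpm2 (33.2 ± 1.44) came next and were the only neighbors in the order whose libraries overlapped. Mylk (29.7 ± 1.67), Tagln (22.8 ± 2.76) and Cnn1 (2.39 ± 0.482) closed the order. In KO-labelled libraries, Actg2 stood at 103 ± 2.62 CPM per kb, Tpm2 at 35.3 ± 0.283, Tagln at 22.4 ± 0.931 and Mylk at 17.5 ± 1.29. Myl9 took the place before last with 6.89 ± 0.621, ahead of Cnn1 with 3.95 ± 0.0332, and no neighbors overlapped. Annotated exons stand in for the transcripts used by these cells, so the level per kb of a gene with many transcripts may be understated.

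**Figure D4:**
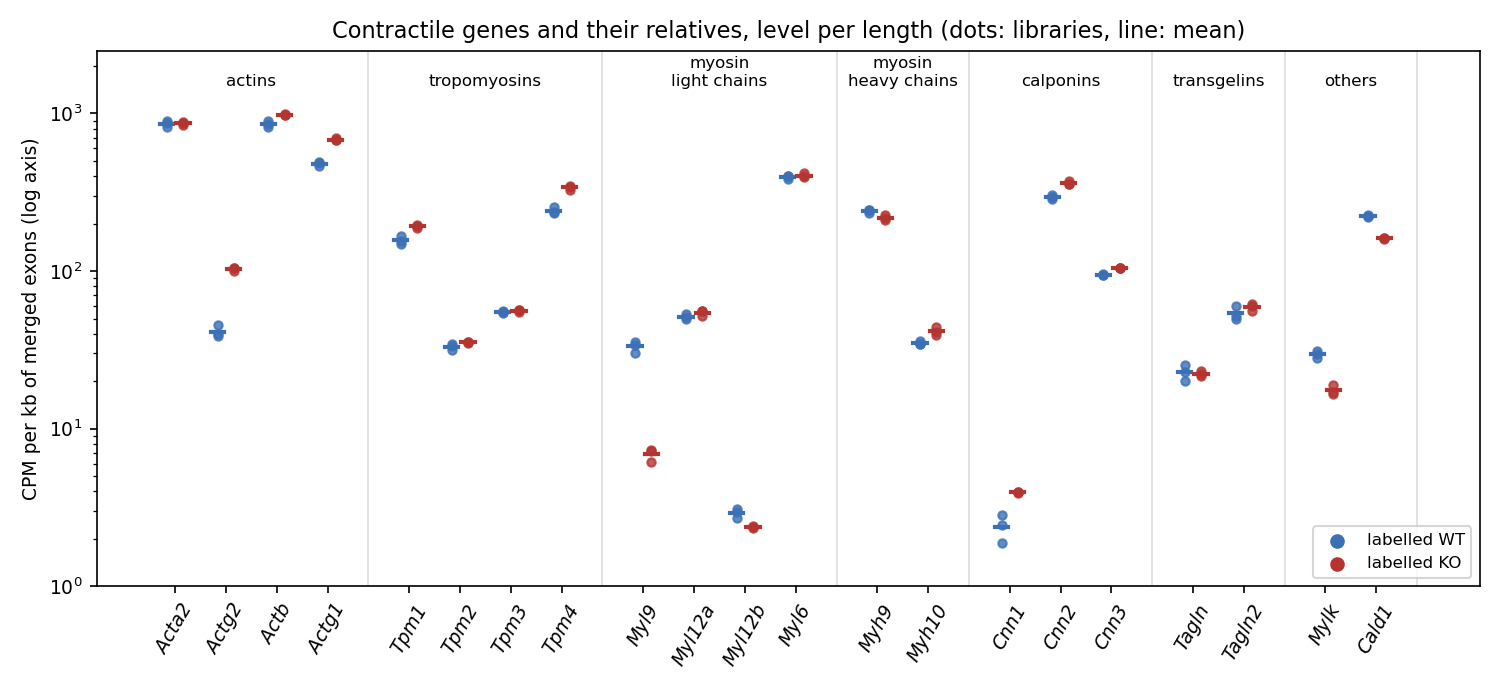
CPM per kilobase of merged exons (vertical log axis) for the contractile genes and their nonmuscle relatives, grouped by family; dots are libraries labelled WT (blue) or KO (red) and lines are means. Acta2 lies near Actb, Cnn1 lies far under Cnn2 and Cnn3, and the level of Myl9 is separated by group.

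Relatives of the same families gave a frame for these levels. Acta2 stood beside the cytoplasmic actin Actb, which was at 860 ± 39.3 and 980.1 ± 8.48 CPM per kb in WT-labelled and KO-labelled libraries. Actb (log2 fold change 0.19, adjusted p = 2.94e-04) and Actg1 (0.51, adjusted p = 1.96e-08), the other cytoplasmic actin, were higher in KO-labelled libraries and under the fold limit. Acta1 and Actc1, the striated muscle actins, have no row in the table used here. Of the 10 actins and actin crosslinkers in the table outside the 10 genes described, none was called by edgeR, DESeq2 or limma. Of all tested genes, edgeR called 11.6% higher and 6.10% lower. All 10 had an unadjusted p under 0.05, as had 63.0% of all tested genes. By adjusted p, 4 were higher and 5 lower, beside 29.9% and 28.8% of all tested genes. The median log2 fold change was -0.01, and it was 0.05 and 0.02 under upper-quartile and total-count scaling, which raised the median over all genes as well.

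Among the other tropomyosins, calponins and transgelins, none of 4 tested genes was called by edgeR, DESeq2 or voom. Of all tested genes, edgeR called 11.6% higher and 6.10% lower, and 4 genes give only a coarse share beside that. In edgeR 3 of the 4 had an unadjusted p under 0.05, beside 63.0% of all tested genes. The median log2 fold change was 0.14, and 2 were higher by adjusted p, beside 29.9% of all tested genes. Those were Tpm4 (log2 fold change 0.49, adjusted p = 1.36e-07) and Cnn3 (0.14, adjusted p = 6.51e-04). Tpm3 (0.02, adjusted p = 0.498) and Tagln2 (0.14, adjusted p = 0.0684) did not pass the test. Tagln3 was under the filter on low counts, and limma on the deposited log2 values, without that filter, called it lower.

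Among the other myosin II chains, 0 of 6 tested genes were called by edgeR, DESeq2 or limma. Of all tested genes, edgeR called 11.6% higher and 6.10% lower, and 6 genes give only a coarse share beside that. In edgeR 3 of the 6 had an unadjusted p under 0.05, beside 63.0% of all tested genes. By adjusted p 1 was higher and 2 were lower, beside 29.9% and 28.8% of all tested genes. The median log2 fold change was -0.05, or 0.00 under upper-quartile scaling. Myl12a and Myl12b encode nonmuscle regulatory light chains close to Myl9. Myl12a was at 51.3 ± 1.77 and 54.3 ± 2.18 CPM per kb, a log2 fold change of 0.08 (adjusted p = 0.0815), and Myl12b was lower by a log2 fold change of -0.30 (adjusted p = 0.00551). As Myl12a and Myl12b are near-identical copies, the split of reads between them is uncertain. The essential light chain Myl6 had a log2 fold change of 0.03 (adjusted p = 0.405). The nonmuscle heavy chains Myh9 (-0.14, adjusted p = 0.00177) and Myh10 (0.25, adjusted p = 1.11e-04) were both under the fold limit, and the smooth muscle heavy chain Myh11 has no row in the table used here.

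The other genes listed under differentiated smooth muscle were mixed, and not all of them are particular to it. Of 10 tested, 3 were called higher and 1 lower, beside 11.6% and 6.10% of all tested genes. By adjusted p, 5 were higher and 3 lower, beside 29.9% and 28.8% of all tested genes, and the median log2 fold change was 0.22. Ldb3, a Z-disc protein of striated muscle, had 65, 84 and 59 counts in WT-labelled libraries and 192, 324 and 228 in KO-labelled libraries (log2 fold change 1.65, adjusted p = 1.57e-06). Smtnl2, which resembles smoothelin, rose by 1.10 on the log2 scale (adjusted p = 8.20e-09), and Lmod1, the leiomodin of smooth muscle, by 0.60 (adjusted p = 1.47e-07). Mustn1 fell by 0.87 (adjusted p = 1.67e-05). Myh11, Des, Kcnmb1 and Casq2 have no row in the table used here.

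Of SRF and its cofactors, 0 of 8 tested genes were called by edgeR, DESeq2 or limma. Of all tested genes, edgeR called 11.6% higher and 6.10% lower, and 8 genes give only a coarse share beside that. In edgeR 7 of the 8 had an unadjusted p under 0.05, beside 63.0% of all tested genes. By adjusted p 3 were higher and 4 lower, beside 29.9% and 28.8% of all tested genes, with a median log2 fold change of -0.09. Srf had a log2 fold change of 0.16 (adjusted p = 0.0192), Mrtfa of 0.32 (adjusted p = 1.52e-06) and Mrtfb of -0.21 (adjusted p = 0.00182). Myocd, the cofactor of cardiac and smooth muscle, has no row in the table used here. Among 19 other target genes of SRF and MRTF, 4 were called higher and 0 lower by edgeR, DESeq2 and limma (18 had an unadjusted p under 0.05, beside 63.0% of all tested genes). Over all tested genes 11.6% were called higher and 6.10% lower. By adjusted p 12 were higher and 5 lower, beside 29.9% and 28.8% of all tested genes, and the median log2 fold change was 0.16. Some genes of this list, Actb, Myh9 and Srf among them, are also in lists counted above, so the counts are not separate. Ccn1, a matricellular protein, rose from 284 ± 22.5 to 705 ± 28.2 CPM (log2 fold change 1.31, adjusted p = 2.73e-10). Ccn2, or connective tissue growth factor, was at 284, 195 and 156 CPM in WT-labelled libraries and at 460, 480 and 432 CPM in KO-labelled libraries (log2 fold change 1.11, adjusted p = 3.41e-05). Ankrd1 rose by 1.01 on the log2 scale (adjusted p = 1.03e-09). The fourth was Tes, with 0.63 (adjusted p = 1.08e-06), and is named here after its value was seen. Any part of SRF and MRTF in these differences was not tested.

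The libraries labelled WT differed among themselves in these genes. WT replicate 1 was the highest and WT replicate 3 the lowest for 8 of the 10 members, and for Mylk and Cald1 the order was the opposite. The same pair of extremes was seen for 21.5% of all tested genes. Median deviations from the group mean were 0.08 and -0.07 on the log2 scale in these 2 libraries. Ccn2 had the same order, with 8907, 6546 and 4989 counts. In KO-labelled libraries no such order was seen, and KO replicate 2 was highest for 6 members with a median deviation of 0.01.

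**Figure D5:**
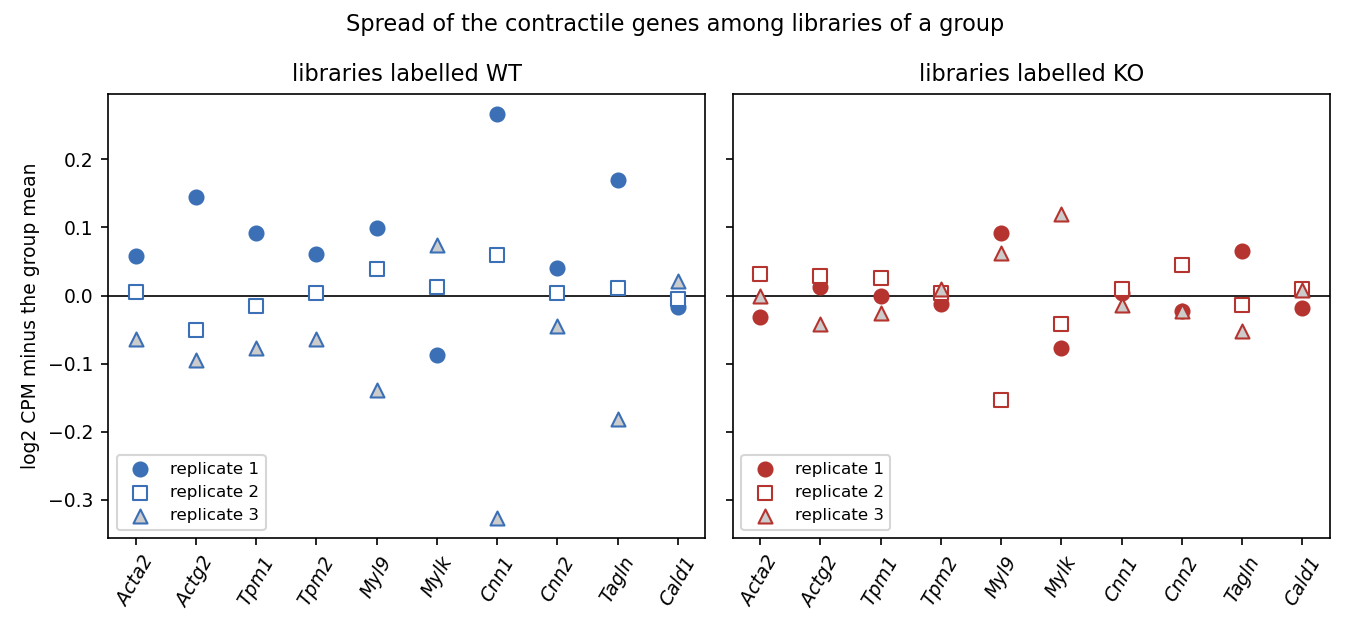
Deviation of each library's log2 CPM from its group mean (vertical axis) for the 10 contractile genes, with replicates 1, 2 and 3 as filled circles, open squares and grey triangles. Among libraries labelled WT, replicate 1 is above and replicate 3 below the mean for 8 genes, and Mylk and Cald1 show the opposite order.

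Markers of other contractile cells gave these values beside the changes of Actg2, Cnn1, Myl9 and Mylk. Of 6 vascular smooth muscle markers, Lmod1 alone has a row, with 55.5 to 57.1 CPM in WT-labelled libraries and 79.2 to 89.1 CPM in KO-labelled libraries. Of 6 pericyte markers, Notch3 alone has a row, with 6.92 to 7.26 and 6.44 to 7.21 CPM. Skeletal muscle markers (3 of 6 in the table) summed to 2.45 to 3.35 and 2.74 to 2.9996 CPM. Epithelial markers (2 of 5) summed to 0.345 to 0.418 and 0.939 to 1.01 CPM, and endothelial markers (0 of 5) had no row. Macrophage markers (3 of 5) summed to 39.5 to 45.5 and 38.4 to 40.1 CPM. Nearly all of the macrophage sum was Lyz2, with means of 41.1 and 36.6 CPM. Cd68 had means of 1.17 and 1.55 CPM and Csf1r of 1.00 and 1.07 CPM, and Ptprc and Adgre1 have no row. Fibroblast markers summed to 44822 to 47236 and 36783 to 38533 CPM, and 4 of 7 tested were called lower, beside 6.10% of all tested genes. Most of that sum was Col1a1, Col1a2 and Col3a1, with log2 fold changes of 0.01, -0.19 and -0.94. The part of these differences in the contractile genes was not tested, and in bulk RNA fewer cells of a type and less RNA per cell cannot be told apart.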

How the data were processed

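RNAseq libraries of polyadenylated RNA from immortalized mouse pancreatic fibroblasts were grouped by their labels, 3 WT and 3 Gli2-/-;Gli3-/-. The authors deposited raw counts of reads per gene for each library and log2 CPM values with an offset of 0.5 counts. The submitters' processing notes name STAR 2.7.2b, featureCounts, limma and the build GRCm38.p6. The strand setting is not given in the sources used here.

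The test was run in edgeR 4.0.16 under R 4.3.3 (TMM scaling, filterByExpr, quasi-likelihood F test, Benjamini-Hochberg adjustment over 14289 genes). CPM used the TMM-scaled library sizes, and the standard error was the size of the log2 fold change over the square root of its F statistic. A call required an adjusted p under 0.05 and at least 1.5-fold. Ratios of relatives were compared by exact permutation tests over 3 pairs of genes, each with a Benjamini-Hochberg adjusted p of 0.1. Alternatives were upper-quartile, total-count and RLE scaling, scaling without the 10 genes, other filters, a 2-fold limit, DESeq2 1.42.0, limma 3.58.1 (voom, and the deposited log2 values) and leaving out each library.

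The rule for the 10 genes uses symbols and no measured value, but it and the related lists were set up with earlier results of these data known. Named beside the 10 genes are Gli2, Gli3, family relatives, SRF and its cofactors, and up to 3 called genes in each direction from each related list where each library of the higher group held at least 100 counts. Positions and lengths are from GENCODE M21 (GRCm38), and all 10 identifiers matched with their version. A floor of 3 counts was 0.0720 to 0.0957 CPM. Libraries of the same group differed beyond sampling noise in each pair (chi-square per degree of freedom 2.50 to 7.74). A Dixon outlier test was not applied to groups of 3. One related list is not reported here.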

Additional observations from a re-analysis of the deposited data

How the results depend on the processing

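Actg2, Myl9, Mylk and Cnn1 were called under every scaling, filter and tool tried at the 1.5-fold limit, and Actg2, Myl9 and Mylk also when each library was left out in turn. Without WT replicate 3, Cnn1 had a log2 fold change of 0.58 and 1 of the 10 genes was called higher. Of all 14504 genes tested in that fit, 1677 were called higher. The member count thus ranged from 1 to 2 when single libraries were left out. At a 2-fold limit Actg2 stayed called higher and Myl9 lower, while Mylk (1.70-fold) and Cnn1 (1.65-fold) were not called. The share of all genes called at that limit is not given here. Tagln was at a positive value under upper-quartile scaling (0.0286) and total-count scaling (0.00644), where the median over all genes was 0.06 and 0.04, and its log2 fold change ranged from -0.116 to 0.0577 when single libraries were left out. That of Acta2 ranged from -0.0260 to 0.0360 in the same way, being -0.0260 without WT replicate 3 and -0.0103 without KO replicate 2. The cause was not tested. Tpm2, at an adjusted p of 0.0520, had one from 0.00402 to 0.246 over the alternatives and passed in 5 of them. This moved the number of members past the adjusted p from 7 to 8. In the main fit 58.7% of all tested genes passed, and the shares under the alternatives are not given here. Including those of Tpm2, 144 fold changes kept their direction and whether they were called, and the 24 values of the ratios kept their direction, with Myl9 between -2.35 and -2.20, Actg2 between 1.27 and 1.39 and Mylk between -0.82 and -0.71. The median over all genes moved by less than 0.1 on the log2 scale under each scaling. No paired analysis was possible because the labels give no shared replicate numbers. With 3 wells per group, the ratio tests cannot give a p under 0.1, and at 164 to 453 counts per library Cnn1 is the least precisely measured of the 10 genes.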
